A study of Rattus norvegicus with 10 samples.

Results

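Wnt signalling genes were examined in rat lung RNA-seq: secreted Wnt and R-spondin ligands, their receptors, their secreted antagonists and the first intracellular steps. Members were taken by gene symbol from the authors' table, as symbols starting with Wnt, Fzd, Dkk, Sfrp, Lgr, Nkd or Axin, R-spondins (with 1 left out by the rule), and Lrp5, Lrp6, Lef1, Tcf7, Wif1, Notum, Rnf43, Znrf3 and Ctnnb1. Of the 1319 genes in that table, 7 were members: the ligands Wnt5b, Wnt9b, Wnt11 and Rspo2, the antagonists Dkk2 and Sfrp5, and the intracellular regulator Nkd1. The lungs came from 8-week-old Sprague Dawley rats, an outbred strain, with 5 wild-type (WT) libraries and 5 from rats that lack Cmg2 (Cmg2-KO). Cmg2, also called Antxr2, encodes a transmembrane anthrax toxin receptor that binds matrix proteins. How the Cmg2 allele was made, and whether the libraries of a genotype came from separate animals, is not given in the sources used here, so p-values measure the spread between these libraries, which may be technical. The transcript of Cmg2 itself was not analysed here and cannot serve to check the genotypes.

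Wnt proteins are lipid-modified secreted ligands that bind Frizzled receptors. Together with the co-receptors Lrp5 and Lrp6 they stabilise beta-catenin, which works with TCF/LEF factors in the nucleus, while other Wnts act through routes that do not need beta-catenin. R-spondins strengthen the signal by binding Lgr receptors and removing the ligases Rnf43 and Znrf3, Dickkopf proteins block Lrp5 and Lrp6, and secreted Frizzled-related proteins bind Wnts outside the cell. In the lung the pathway takes part in airway branching before birth and in alveolar repair in the adult. Anthrax toxin receptors have been reported to interact with Lrp6, which gives the comparison of genotypes a bearing on this pathway.

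In Cmg2-KO lung, 5 of the 7 members (Wnt5b, Wnt9b, Rspo2, Dkk2 and Sfrp5) had lower mean levels than in WT, and 2 (Wnt11 and Nkd1) had higher ones. Set against the WT mean, the Cmg2-KO mean differed by -54.7% for Sfrp5, -51.9% for Wnt9b, -46.5% for Rspo2, -35.4% for Wnt5b and -30.1% for Dkk2. For Wnt11 it was 31.5% higher and for Nkd1 11.8% higher. None of the 7 had an adjusted p under 0.05 in limma, a linear model on log values (0.229% of the 1308 genes tested did), and none had one in the authors' deposited table (5.46% of its genes did). All 7 had an unadjusted limma p under 0.05, as did 79.1% of all genes tested. Adjusted p-values of the members ran from 0.715 to 0.905 with limma, and the authors' deposited table gave 0.135 to 0.649. The values behind these differences are read counts scaled by the authors for library depth, called scaled counts below.

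The table holds only genes with an unadjusted p under 0.05 from the authors for this same contrast, 6.63% of the 19894 genes that their adjustment covered. Every member present had therefore already been selected for a difference between the genotypes. Current RefSeq symbols of protein-coding rat genes that meet the same name rule number 57, and the 7 members are 12.3% of these. They comprise 3 of 19 Wnt genes, 1 of 3 R-spondin genes, 1 of 5 Dkk genes, 1 of 4 Sfrp genes and 1 of 2 Nkd genes. None of the 10 Frizzled, 3 Lgr or 2 Axin genes and none of the 9 genes named singly, Lrp5, Lrp6 and Ctnnb1 among them, was in the table, and they were not analysed here. The median log2 fold change of the 7 members was -0.55 and that of all 1308 genes tested -0.15, and 51.8% of all genes tested were lower in Cmg2-KO. Since selection fixed which members could be seen, these counts and medians describe the table and support no statement on the pathway.

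Each library held between 1386578 and 1531531 scaled counts in the genes of the table, and total sequencing depth is unknown. The lung surfactant gene Sftpb, a marker of alveolar type 2 cells, lay between 45665 and 65237 scaled counts in WT and between 42133 and 48747 in Cmg2-KO. Of 19 marker lists for cell types of the lung, 9 had genes in the table, with no such gene at 0 in any library. Markers without an unadjusted p under 0.05 from the authors could not appear, so those present do not stand for their lists. All 8 smooth muscle markers present of 10, both fibroblast markers present of 10 (Dcn and Pi16), both pericyte markers present of 5 and all 3 club cell markers present of 4 were lower in Cmg2-KO. Sftpb, the alveolar type 2 marker present of 5, was lower too. All 5 mesothelial markers present of 7, the lymphatic marker present of 4 (Flt4) and the B cell marker present of 4 (Jchain) were higher, and of the endothelial markers Plvap was higher and Tie1 lower. Lung is a mixed tissue, and in bulk RNA fewer cells of a type and less RNA per cell cannot be told apart.

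Wnt5b, on chromosome 4 (151500957 to 151516894, minus strand; coordinates are the authors', whose genome build is not given in the sources used here), is a ligand linked mostly to signalling without beta-catenin. It stood at 234, 390, 622, 342 and 256 scaled counts in WT 1 to WT 5. In Cmg2-KO 1 to 5 it stood at 289, 227, 195, 236 and 243. The WT libraries spread widely, with WT 3 above all others, and the Cmg2-KO libraries were close together within or just below the lower part of the WT range. Group means were 369 ± 155 and 238 ± 33.7 (SD, n = 5 per genotype). The log2 fold change, taken as Cmg2-KO minus WT in log2(scaled count + 1) here and below, was -0.55 ± 0.24 (SE; limma, adjusted p = 0.905). Without WT 3 it was -0.34, the only change beyond 1.5 times among the members when single libraries were left out.

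Wnt9b, on chromosome 10 (91785893 to 91807937, minus strand), is a ligand that signals mostly through beta-catenin and is best known from kidney development. It stood at 62.0, 27.0, 38.8, 100.1 and 28.4 scaled counts in WT 1 to WT 5, and at 17.4, 29.0, 14.6, 33.1 and 29.1 in Cmg2-KO 1 to 5. WT 4 and WT 1 lay far above every other library, WT 3 lay just above the Cmg2-KO range, and WT 2 and WT 5 lay within it. Means were 51.3 ± 30.7 and 24.6 ± 8.11 (SD, n = 5), and the log2 fold change was -0.91 ± 0.39 (SE; limma, adjusted p = 0.895). Without WT 4 the log2 fold change was -0.63.

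Wnt11, on chromosome 1 (163797660 to 163813756, plus strand), is a ligand of cell movement and planar polarity signalling. Of the 4 ligands examined it was the one with a higher mean in Cmg2-KO. WT 1 to WT 5 stood at 373, 256, 375, 398 and 384 scaled counts, and Cmg2-KO 1 to 5 at 457, 373, 536, 578 and 405. Of the Cmg2-KO libraries 4 lay above every WT library, and Cmg2-KO 2 lay within the WT range, which WT 2 extended downward. Means were 357 ± 57.4 and 469.9 ± 86.0 (SD, n = 5), and the log2 fold change was 0.39 ± 0.15 (SE; limma, adjusted p = 0.848). Without WT 2 the log2 fold change was 0.28.

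Rspo2 (R-spondin 2), on chromosome 7 (81924050 to 82059789, minus strand), is a mesenchymal ligand that amplifies Wnt signals and is needed for normal lung growth in the mouse embryo. It had the lowest p-value of the members in the authors' deposited table (p = 0.001, adjusted p = 0.135). WT 1 to WT 5 stood at 88.4, 55.0, 59.9, 104 and 61.0 scaled counts, and Cmg2-KO 1 to 5 at 48.7, 44.8, 20.9, 44.4 and 38.5. All 5 Cmg2-KO libraries lay below every WT library, as did 7.11% of all genes tested. Means were 73.7 ± 21.5 and 39.5 ± 11.0 (SD, n = 5), and the log2 fold change was -0.90 ± 0.27 (SE; limma, adjusted p = 0.715). The two-sided exact permutation p over libraries was 0.00794, the smallest that 5 against 5 can give, and it cannot pass an adjustment over 19894 genes. Cmg2-KO 3 was the lowest library, and without it the log2 fold change was -0.69.

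**Figure D1:**
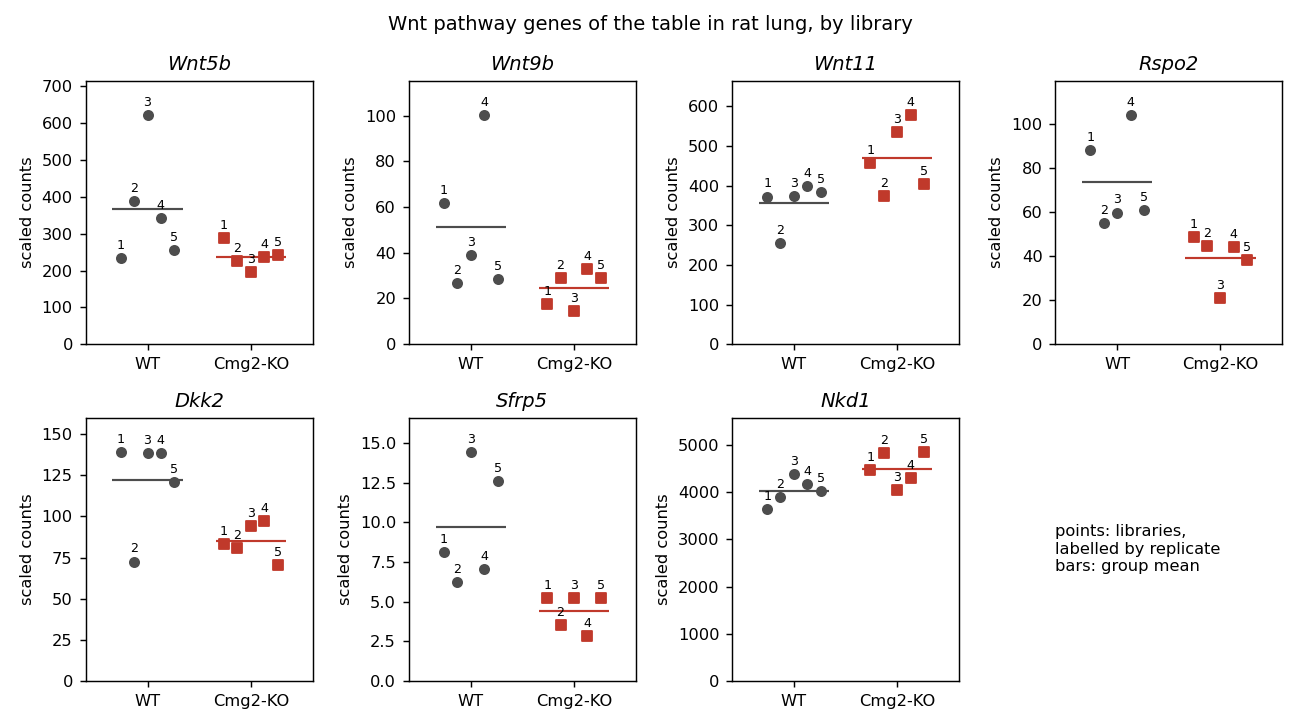
Scaled counts (vertical axes, linear, from 0) of the 7 Wnt pathway genes of the table in each WT (grey circles) and Cmg2-KO (red squares) library, labelled by replicate number, with the group mean as a bar (n = 5 per genotype). Rspo2 and Sfrp5 are lower in every Cmg2-KO library than in any WT library, as were 7.11% of all genes tested. WT 2 is the lowest WT library of Wnt9b, Wnt11, Rspo2, Dkk2 and Sfrp5.

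No receptor of the rule was present, and the antagonists were represented by Dkk2 and Sfrp5. Dkk2, on chromosome 2 (237148941 to 237241350, plus strand), encodes a Dickkopf protein that binds Lrp5 and Lrp6 and can weaken or, in some settings, raise beta-catenin signalling. It stood at 139, 72.6, 139, 139 and 121 scaled counts in WT 1 to WT 5, and at 83.4, 80.8, 94.0, 97.4 and 70.7 in Cmg2-KO 1 to 5. Apart from WT 2, which lay within the Cmg2-KO range, every WT library was above every Cmg2-KO library. Means were 122 ± 28.7 and 85.3 ± 10.7 (SD, n = 5). The log2 fold change was -0.48 ± 0.19 (SE; limma, adjusted p = 0.869), and -0.66 without WT 2.

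Sfrp5, on chromosome 1 (261442108 to 261446570, minus strand), encodes a secreted protein that binds Wnts, Wnt5a and Wnt11 among its known partners. It was the least abundant member. WT 1 to WT 5 stood at 8.13, 6.22, 14.4, 7.08 and 12.6 scaled counts, and Cmg2-KO 1 to 5 at 5.21, 3.51, 5.22, 2.84 and 5.198. All 5 Cmg2-KO libraries lay below every WT library, as did 7.11% of all genes tested. The counts behind the values were small, between 3 and 6 reads in Cmg2-KO. In the 4 WT libraries used for the count tests they were between 6 and 13 reads. Means were 9.70 ± 3.62 and 4.40 ± 1.14 (SD, n = 5). The log2 fold change was -0.95 ± 0.32 (SE; limma, adjusted p = 0.781). The added 1 shrinks it at this level, and with a pseudocount of 0.5 it was -1.02. The two-sided exact permutation p was 0.00794 here too, which restates the lack of overlap. For the members with overlap this p was 0.0397 (Wnt11), 0.0476 (Dkk2), 0.0556 (Nkd1), 0.0635 (Wnt5b) and 0.0794 (Wnt9b).

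Nkd1, on chromosome 19 (19436333 to 19509087, minus strand), encodes naked cuticle homolog 1, a Dishevelled-binding protein that beta-catenin signalling induces and that restrains the pathway in return. It stood at 3645, 3898, 4399, 4186 and 4024 scaled counts in WT 1 to WT 5. In Cmg2-KO 1 to 5 it stood at 4479, 4838, 4059, 4295 and 4855. Of the Cmg2-KO libraries 3 were above every WT library and the other two lay within the WT range, above its median. Means were 4030.3 ± 286 and 4505 ± 345 (SD, n = 5), and the log2 fold change was 0.16 ± 0.07 (SE; limma, adjusted p = 0.88). It was the most abundant member and varied least between libraries, with an SD of 7.09% of the mean in WT and 7.66% in Cmg2-KO. For Wnt9b the same figures were 59.9% and 32.9%.

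Because Nkd1 is a known feedback gene of beta-catenin, its promoter was read beside that of Wnt9b, a ligand with a lower mean in Cmg2-KO, for the TCF/LEF core CTTTGAT on either strand. RefSeq promoter windows (build GRCr8) matched 4 of the 7 members by symbol, Wnt11, Wnt9b, Sfrp5 and Nkd1, and the 250 bases before the start site were searched. Only the Nkd1 window held the core, on the gene's own strand, starting 141 bases before the start site. Of all 33469 windows of the same length 3.15% held it. The Wnt11 window lies before a start site that is not the outer end of its RefSeq gene, unlike the Wnt9b, Sfrp5 and Nkd1 windows. The core is in capitals, on the strand of the gene from 5′ to 3′. The Nkd1 window is chr19:34722847-34723096 and the Wnt9b window chr10:89157066-89157315, both on the minus strand.
Nkd1: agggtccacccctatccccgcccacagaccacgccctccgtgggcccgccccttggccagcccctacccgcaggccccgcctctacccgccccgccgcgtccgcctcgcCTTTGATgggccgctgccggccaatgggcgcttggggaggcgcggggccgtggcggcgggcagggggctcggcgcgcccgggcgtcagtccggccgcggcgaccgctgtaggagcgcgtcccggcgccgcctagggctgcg
Wnt9b: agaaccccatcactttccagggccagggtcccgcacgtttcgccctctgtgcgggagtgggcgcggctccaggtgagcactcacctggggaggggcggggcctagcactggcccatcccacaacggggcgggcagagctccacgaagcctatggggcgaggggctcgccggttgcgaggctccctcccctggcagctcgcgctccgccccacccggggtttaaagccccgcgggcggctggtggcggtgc
G and C made up 80.0% of the Nkd1 window and 72.4% of the Wnt9b window, against a median of 51.2% over all windows. A match is a string of letters and was not tested for binding.

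Levels of the members were compared with each other per length, as scaled counts per kilobase of the gene length in the authors' table. In WT the order was Nkd1 (1577 ± 112), Wnt5b (143 ± 60.2), Wnt11 (138 ± 22.2), Dkk2 (34.6 ± 8.12), Rspo2 (14.1 ± 4.12), Wnt9b (10.5 ± 6.30) and Sfrp5 (4.87 ± 1.82 scaled counts per kilobase; SD, n = 5). In Cmg2-KO Wnt11 came before Wnt5b, at 182 ± 33.3 and 92.4 ± 13.1 scaled counts per kilobase, and the rest of the order was the same. The ratio of Wnt11 to Wnt5b per kilobase lay between 0.602 and 1.59 in WT and between 1.58 and 2.74 in Cmg2-KO. In WT these neighbours did not differ beyond their spread (median ratio 1.16). Wnt11 was the higher of the pair in WT 1, WT 4, WT 5 and all 5 Cmg2-KO libraries. The ratios overlapped between the genotypes, at 1.59 in WT 1 and 1.58 in Cmg2-KO 1. Rspo2 and Wnt9b did not differ beyond their spread in WT. Ratios of Rspo2 to Wnt9b lay between 0.972 and 2.01 in WT (mean 1.53) and between 1.23 and 2.62 in Cmg2-KO (mean 1.58). They thus overlapped between the genotypes.

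**Figure D2:**
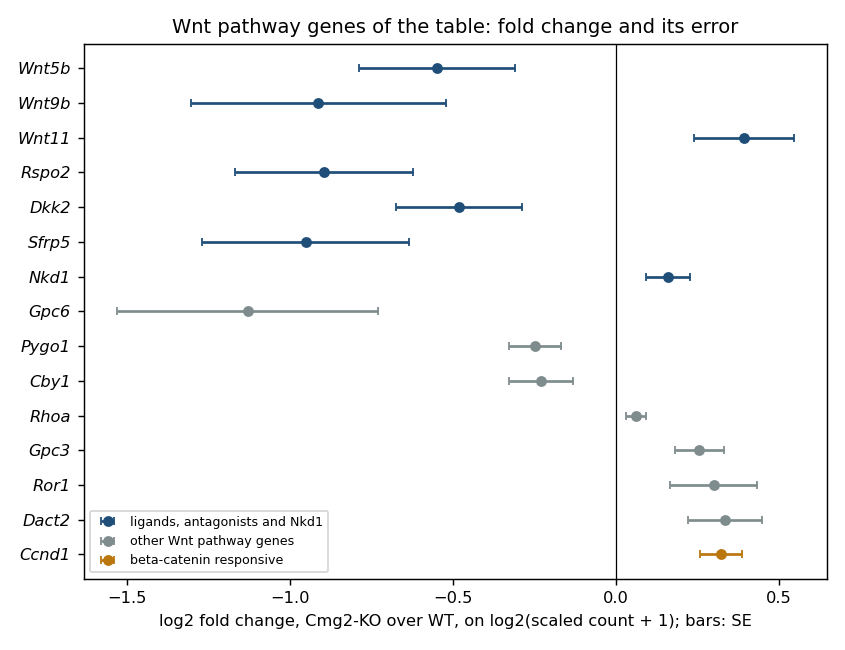
Log2 fold change (horizontal axis, from log2(scaled count + 1), above 0 where Cmg2-KO is higher; points) with its SE (bars) for the 7 members (blue), 7 other Wnt pathway genes (grey) and Ccnd1 (orange), from 5 libraries per genotype. Among the members, values run from -0.95 for Sfrp5 to 0.39 for Wnt11, and Nkd1 has the narrowest error.

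Some members varied together from library to library once each genotype's mean log2 value was removed. Among the 21 pairs of members, Pearson's r over the 10 libraries ran from -0.44 to 0.87 with a median of 0.24. The highest was for Dkk2 and Wnt11 (r = 0.87, Spearman's rho = 0.65), 2 genes whose means differed between genotypes in opposite directions. It was 0.73 without WT 2 and Cmg2-KO 5, the libraries farthest from the median of Dkk2. The next was for Rspo2 and Wnt9b (r = 0.77, rho = 0.72, and r = 0.69 without Cmg2-KO 3 and WT 2). Both genes had their highest values in WT 4 and WT 1 and their lowest in Cmg2-KO 3. These pairs were picked as the highest of 21, the points share libraries and scaling, and no p is given.

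**Figure D3:**
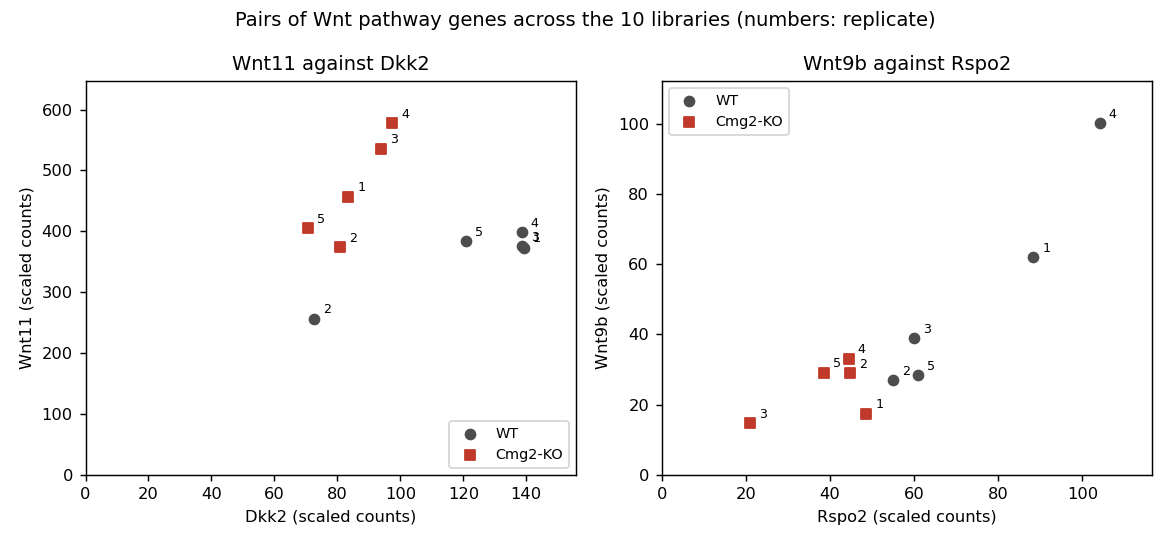
Scaled counts of Wnt11 against Dkk2 (left) and of Wnt9b against Rspo2 (right) in each library (linear axes from 0; grey circles WT, red squares Cmg2-KO, numbers give the replicate). On the left WT 2 is the one WT library within the Dkk2 range of Cmg2-KO, and it has less Wnt11 than any Cmg2-KO library. On the right WT 4 and WT 1 stand at the top and Cmg2-KO 3 at the bottom.

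Of the 924 named genes of the table with a mean of at least 10 scaled counts, those most like a member across the 10 libraries, with genotype means removed, were listed by Pearson's r. Wnt11 was most like Bag2, a co-chaperone gene (r = 0.97), and Hspb6, a small heat shock protein gene (r = 0.93). Dkk2 was most like Plxnd1, a semaphorin receptor gene, and Ednra, the endothelin A receptor gene (r = 0.92 for both). Wnt9b was most like Thbs1, the thrombospondin 1 gene (r = 0.91), and the proteoglycan gene Dcn (r = 0.89). Wnt5b was most like Sod3, the extracellular superoxide dismutase gene (r = 0.92), Rspo2 most like Gfod1 (r = 0.87) and Nkd1 most like Ltbp1 (r = 0.84). Each is the highest or the next highest of 923 values and is given without a p.

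The cell type markers present had, like every gene of the table, been selected for a difference between these genotypes. That they differed was therefore fixed beforehand, and their levels are given as a description. The summed level of the 8 smooth muscle markers lay between 29743 and 49069 scaled counts in WT and between 24491 and 36826 in Cmg2-KO. Dcn and Pi16, the fibroblast markers present, summed to between 1957 and 5256 in WT and between 1509 and 2669 in Cmg2-KO. The mesothelial markers summed to between 2369 and 4170 in WT and between 2883 and 5390 in Cmg2-KO. Pericyte markers (Lamc3 and Rgs5) summed to between 782 and 1233 in WT and between 587 and 764 in Cmg2-KO, without overlap. Taken singly, 7.11% of all genes tested were lower in Cmg2-KO without overlap. Club cell markers summed to between 144254 and 196623 in WT and between 84339 and 176843 in Cmg2-KO. Jchain lay between 1743 and 4279 in WT and between 3422 and 6336 in Cmg2-KO, and Flt4 between 740.5 and 914 and between 848 and 1051. The summed level of Plvap and Tie1 overlapped, at 26876 to 33725 in WT and 27461 to 33858 in Cmg2-KO. The part of these differences in the levels of Rspo2, Wnt5b, Wnt9b, Wnt11, Dkk2, Sfrp5 and Nkd1 was not tested.

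Other genes of the pathway came from a list of 67 names, of which 7 were in the table, 4 with higher and 3 with lower means in Cmg2-KO (Rhoa, 1 of the higher genes, was lower with quantile normalization). None had an adjusted p under 0.05 with limma (0.229% of all genes tested did), and none had one in the authors' deposited table (5.46% of its genes did). Ror1, a receptor for Wnt5a and related ligands, stood at 289 ± 31.4 in WT and 359 ± 65.7 scaled counts in Cmg2-KO (SD, n = 5). The heparan sulfate proteoglycan Gpc3, which binds Wnts and Frizzleds, stood at 5339 ± 401 and 6384 ± 634, with 4 of 5 Cmg2-KO libraries above all WT libraries (log2 fold change 0.26 ± 0.08, SE). Its relative Gpc6 stood at 34.7 ± 11.3 and 15.9 ± 6.16, with Cmg2-KO 3 at 5.22 (log2 fold change -1.13 ± 0.40, SE). Glypicans thus lay on both sides. Dact2, a Dishevelled-binding antagonist of beta-catenin signalling, stood at 573 ± 70.4 and 724 ± 99.99. Pygo1, a nuclear partner of beta-catenin, stood at 316 ± 25.5 and 265 ± 14.1, and Cby1, an inhibitor of beta-catenin, at 381 ± 40.9 and 324 ± 28.5. Rhoa, a small GTPase downstream of polarity signals, stood at 16750 ± 126 and 17480.1 ± 254, a log2 fold change of 0.06 that became -0.17 with quantile normalization. In scaled counts all its Cmg2-KO libraries lay above all WT libraries, as did 9.33% of all genes tested.

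A second list held 43 names of genes known from various tissues to respond to beta-catenin, old and new symbols of some genes among them. Of these names 1, the cyclin D1 gene Ccnd1, was in the table. Ccnd1, which drives entry into S phase and responds to many signals besides Wnt, stood at 5963, 5828, 5964, 5657 and 6369 scaled counts in WT 1 to WT 5. In Cmg2-KO 1 to 5 it stood at 7983, 6765, 6858, 8254 and 7440. All Cmg2-KO libraries lay above all WT libraries, as did 9.33% of all genes tested. Means were 5956 ± 263 and 7460.01 ± 661 (SD, n = 5), 25.3% higher in Cmg2-KO, with a log2 fold change of 0.32 ± 0.06 (SE). The authors' deposited table gave it an adjusted p of 0.0041, and limma gave 0.356. Over the alternatives that adjust over all genes it ran from 0.0381 with DESeq2 on reads of 9 libraries to 0.817 with edgeR on the same reads. The other genes of that list were not analysed here.

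**Figure D4:**
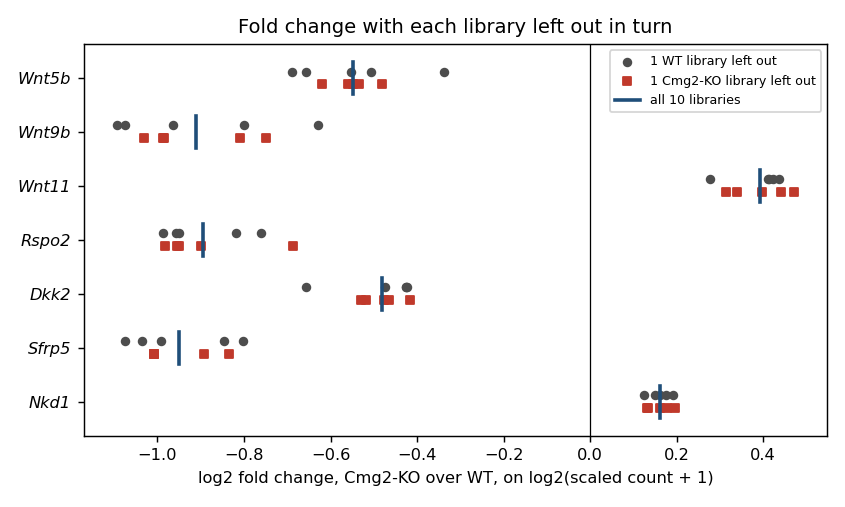
Log2 fold change (horizontal axis, from log2(scaled count + 1), above 0 where Cmg2-KO is higher) of each member with all 10 libraries (blue bars) and with 1 WT (grey circles) or 1 Cmg2-KO (red squares) library left out. No member changed sign. Wnt9b moved from -0.91 to -0.63 without WT 4, and Wnt5b from -0.55 to -0.34 without WT 3.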

How the data were processed

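RNA from flash-frozen lung was extracted with Trizol and made into NEBNext Ultra libraries, per the labels' protocols. The submitters' processing notes name HISAT2 2.0.5 for alignment and featureCounts 1.5.0-p3 for counting. Whether strand was kept is not stated, so antisense reads may be included. The build, the annotation release and the test behind the authors' p-values were not given in the sources used here. Per the file headers and the values, the authors deposited a signal per library (read counts divided by 1 size factor, here scaled counts), group means, a log2 fold change, a fold (ratio), p-values and adjusted p-values, and gene length. In each library 100% of values were whole multiples of 1 read (0.869 to 1.11 scaled counts) within 0.02 reads. The authors' adjusted p-values are those of Benjamini-Hochberg over about 19894 genes.

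Genotypes came from the titles, 5 libraries each. The comparison used limma 3.58.1 in R 4.3.3 with trend and robust options, on log2(scaled count + 1), for 1308 genes above 0.5 in at least 5 libraries, adjusted over 19894 genes. Variances came from genes selected for this contrast. Alternatives covered pseudocount, filter, scaling, limma options, adjustment, replicate block, each library left out and exact permutation. They also covered edgeR 4.0.16 and DESeq2 1.42.0 on whole reads of 9 libraries. WT 4 gave whole multiples too, at 1.01 scaled counts a read, but was not accepted by the check used for recovery. Every member in the table was named, with the listed pathway genes and the most alike genes. Members, lists and tests were chosen with earlier results of these data known. One R-spondin gene is not reported here.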

Additional observations from a re-analysis of the deposited data

Results flagged for a closer look

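Within each genotype, a library counted as set apart if the gap on the log2 scale between it and its nearest neighbour exceeded 0.71 of the range of the 5 libraries. Over the 15 genes described (7 members, 7 other pathway genes and Ccnd1) this gave 5 of 30 groups. Chance at 1 in 20 gives about 1.5 if groups are independent. They are not, since all genes share the same libraries and some vary together, so the count is a description. WT 2 was the library set apart in 3 of the 5 groups. It had 72.6 scaled counts of Dkk2 against 121 to 139 in the other WT libraries, 256 of Wnt11 against 373 to 398, and 313 of Cby1 against 382 to 414. Cmg2-KO 3 was set apart in the other two, with 20.9 scaled counts of Rspo2 against 38.5 to 48.7 in the remaining Cmg2-KO libraries, and 5.22 of Gpc6 against 16.5 to 20.2.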

How the results depend on the processing

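Each member kept its direction in every alternative run. Of 153 recomputed member values, 152 stayed on the same side of the adjusted threshold. With adjusted limma p-values of 0.715 to 0.905 there was little room for a change of call. Rspo2 passed (adjusted p = 0.047) only when limma's p-values were adjusted over the table alone, which ignores how its genes were selected. The highest unadjusted limma p over the alternatives was 0.0294 for Rspo2 and 0.047 for Sfrp5. It was 0.0662 for Wnt11, 0.0776 for Dkk2, 0.0921 for Wnt5b, 0.0977 for Wnt9b and 0.182 for Nkd1. Sfrp5 had no value under the filter of a mean of at least 10. The members' median log2 fold change was -0.69 to -0.43 over all alternatives. For Rhoa the direction reversed with quantile normalization, to -0.17. Over all genes tested, limma passed 3. This count was 257 adjusted over the table alone, 1 with edgeR and 49 with DESeq2 on reads of 9 libraries, and 1 to 6 with 1 library left out (1 without WT 4 or Cmg2-KO 1, 5 without WT 3, 6 without Cmg2-KO 3 or Cmg2-KO 4). The causes were not tested.

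With the replicate number as a block, limma passed 0 genes (899 at an unadjusted p under 0.05) and no member changed its call. Deviations of same-numbered libraries correlated between -0.016 and 0.087 over genes, and 3 of 5 WT libraries correlated best with their own number. These values do not settle whether same-numbered libraries share more than a number. Counts of 3 to 13 reads per library limit Sfrp5.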

Other observations

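The ratio of Wnt11 to Dkk2 per kilobase separated the genotypes with a narrow spread. It lay between 3.66 and 4.83 in WT (mean 4.09 ± 0.491, SD, n = 5) and between 6.32 and 8.11 in Cmg2-KO (mean 7.51 ± 0.703). WT 2, which had the lowest level of both genes among WT libraries, had a ratio of 4.83. Of the 10 pairs of members whose means differed in opposite directions, 5 had ratios without overlap, the others being Wnt11 to Rspo2, Nkd1 to Rspo2, Wnt11 to Sfrp5 and Nkd1 to Sfrp5. A ratio of genes selected for differences in opposite directions has to differ itself, so this count restates the directions. The ratios were looked at after the values were seen, on genes selected for this contrast, so no test is given.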
